A study of Mus musculus with 9 samples.

Results

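The motile cilium axoneme genes comprised 101 of the 25526 names in a mouse lung expression table. They were chosen by symbol alone: Dnah, Dnaic, Dnali, Dnaaf, Drc, Cfap, Rsph, Tekt, Spag or Ift followed by a digit, together with Foxj1, Mcidas and Hydin. Levels are FPKM, fragment counts divided by the length of the transcript and by the size of the library. Of the 101 genes, 90 reached 1 FPKM in 3 or more of the 9 libraries and were tested among 14540 genes that did so, and 11 stayed below that level and are given apart. Lung RNA came from 3 mice given PepNzymeSOD-CAT, an inhalable polypeptide nanozyme (a synthetic material with enzyme-like activity), from 3 mice of a pulmonary fibrosis model and from 3 normal mice. These are called nanozyme, model and normal lungs. The strain, sex and age of the mice, the inducer of fibrosis, the nanozyme dose and the day of sampling are not given in the sources used here, nor is it stated that fibrosis had been induced in the nanozyme mice. The study asked how the nanozyme acts in pulmonary fibrosis.

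A motile cilium beats because dynein arms on its outer microtubule doublets make neighbouring doublets slide. The nexin-dynein regulatory complex and the radial spokes link those arms to each other and to a central pair of microtubules, and together they shape the beat. In the lung, such cilia cover the multiciliated cells of the conducting airways and move mucus towards the throat. Mcidas promotes the multiciliated program in airway progenitors, and Foxj1 then switches on the genes of the motile axoneme. Intraflagellar transport carries building material along cilia of all kinds, the immotile primary cilium of many other lung cell types included.

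Summed FPKM ran from 443746 to 519772 per library, and depth is unknown because read counts were not used here. The nanozyme libraries carry names from another run of numbers than the other 6, and no batch is labelled, so a batch cannot be told apart from the nanozyme treatment. On the first principal component of all tested genes, nanozyme replicate 2 lay at 43.3, within the model range of 39.5 to 61.2, whereas nanozyme replicates 1 and 3 lay at -14.4 and -9.68. Normal replicate 3 lay between normal replicates 1 and 2 at 82 of the 90 tested axoneme genes. Over all tested genes it did so at 53.6%, against 18.4% to 44.4% for each of the other 8 libraries within its own group. At the 36 axoneme genes where normal replicates 1 and 2 differed at least 2-fold, normal replicate 3 sat near their midpoint (quartiles 0.405 to 0.507 of the way up). Whether normal replicate 3 is a separate animal is therefore in doubt: the labels give 3 mice a group, but if this library mixes RNA or reads of the others, normal lung holds fewer than 3 independent samples, its SD is too small and the p-values against it are too low. Counts of calls against normal lung are also given without normal replicate 3, and some calls without nanozyme replicate 2.

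The axoneme genes were lower in model than in normal lung. By limma with Benjamini-Hochberg adjustment over all tested genes, 76 of 90 fell, 1 rose and 13 did not pass at 0.05. Over all tested genes 22.7% fell and 17.4% rose. The median log2 fold change was -1.36 over the axoneme genes and -0.12 over all tested genes, and the median axoneme gene averaged 32.6% of its normal mean in model lung. At 79 of 90 axoneme genes every model library was below every normal library, which was so at 34.9% of all tested genes, and at 1 every model library was above (23.5%). Changes are log2 fold changes of FPKM + 1 with their SE, which understate the change of genes near or below 1 FPKM. In whole lung, fewer ciliated cells and less RNA per ciliated cell cannot be told apart. Without normal replicate 3, 64 axoneme genes fell and 1 rose, against 13.2% of all tested genes in each direction. Median-of-ratios scaling moved the median of all tested genes to 0.0045 and their calls to 3117 higher and 2521 lower, against 2525 higher and 3299 lower as deposited, while 72 axoneme genes fell on that scale.

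Nanozyme lungs were also below normal lungs. There 57 of 90 axoneme genes fell and 0 rose by limma, against 5.5% and 8.39% of all tested genes. At an unadjusted p under 0.05, 1 axoneme gene, Spag5, was higher. All 57 were among the 76 that fell in model lung. The median log2 fold change was -1.19, against -0.01 over all tested genes, and the groups did not overlap, with nanozyme lower, at 80 of 90 axoneme genes and at 20.8% of all tested genes, and with nanozyme higher at 1 and at 22.1%. The number of calls depended on single libraries: 9 fell without normal replicate 1 (1.16% of all tested genes), 9 without normal replicate 3 (1.02%), 18 without nanozyme replicate 1 (2.99%) and 32 without nanozyme replicate 3 (3.26%). Without normal replicate 3, 0 rose, against 4.13% of all tested genes. Between nanozyme and model lung, 0 of 90 axoneme genes passed in either direction, as did 0.0% of all tested genes. At an unadjusted p under 0.05 there were 4 axoneme genes, against 3211 of all tested genes, and the median log2 fold change was 0.19, against 0.09 over all tested genes. Of the 90 genes, 77 had a positive and 13 a negative nanozyme-minus-model value, against 9139 positive and 5401 negative over all tested genes. The lean to positive values was not confined to axoneme genes. Their larger share does not count as replication, because these genes moved together within libraries. The median tested axoneme gene stood at 30.7%, 42.3% and 40.7% of its normal mean in nanozyme and at 41.8%, 40.1% and 19.3% in model lungs. Model replicate 3 was the lowest model library at 82 of the 90 genes, and its part in the lean was not tested.

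**Figure D1:**
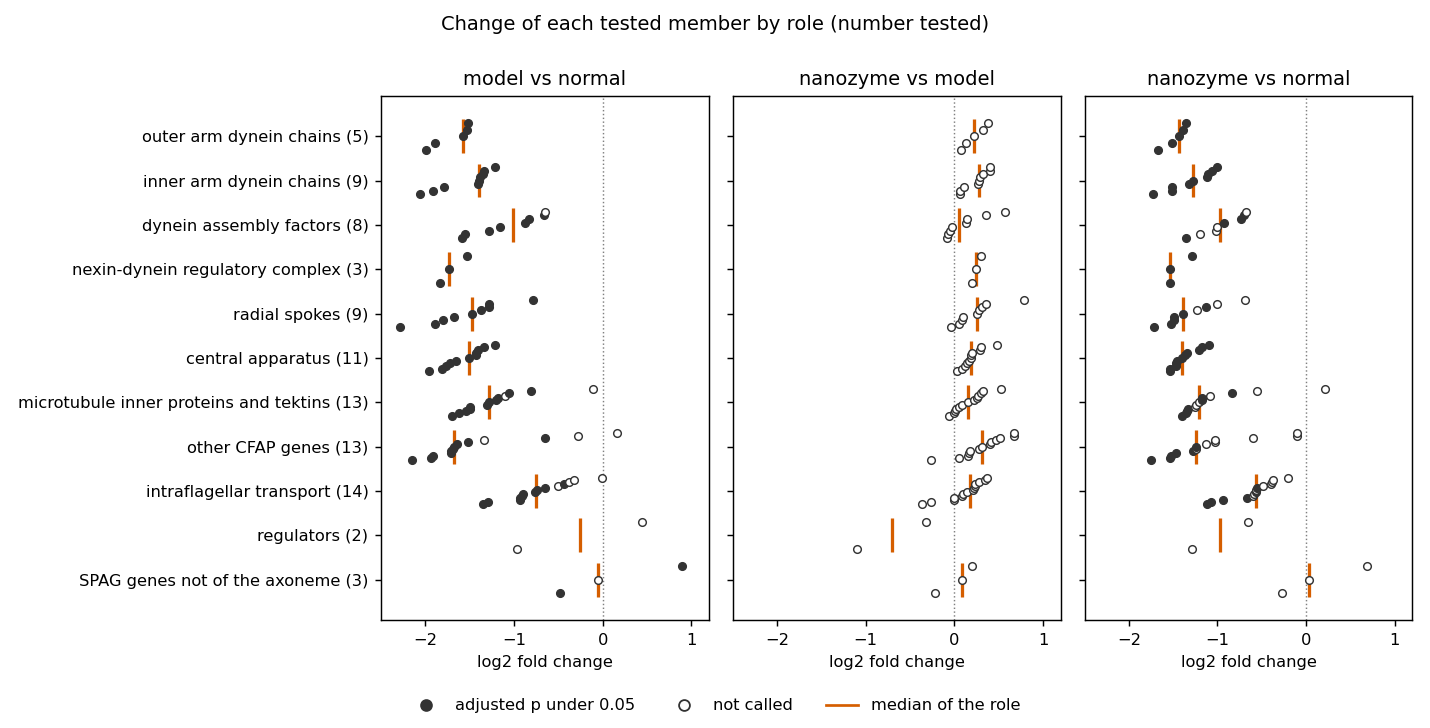
Each circle is 1 tested gene, placed by its log2 fold change of FPKM + 1 (horizontal axis) in model against normal, nanozyme against model and nanozyme against normal lung, with genes grouped by role down the page. Filled circles passed limma at an adjusted p under 0.05 and orange bars are role medians. Most roles sit between -2 and -1 in both comparisons with normal lung, intraflagellar transport lies nearer 0, and no circle is filled in nanozyme against model.

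A short sequence recurred in the promoters of the axoneme genes. RFX transcription factors bind the X-box, an inverted repeat in the promoters of many ciliary genes. Rfx2 was at 6.30, 4.94 and 6.58 FPKM in nanozyme, 7.60, 4.46 and 4.46 FPKM in model and 14.9, 8.57 and 10.5 FPKM in normal lungs. Rfx2 fell in model lung (-0.92 ± 0.24, adjusted p = 0.0162), and so did Rfx3 (-0.97 ± 0.18, adjusted p = 0.00435). RefSeq windows of GRCm38.p6, from 250 bases before to 50 bases after the annotated start, were held for 82 of the 101 genes. The X-box arm GTTGCC, searched on both strands in any window of a gene, occurred in 34 of these 82 (41.5%), against 3821 of the 27025 genes with a window (14.1%). It occurred in 28 of the 61 genes that fell in model lung and in 4 of the 11 that did not pass. By role it was held by 5 of 6 dynein assembly factors, 6 of 11 central apparatus genes, 6 of 12 microtubule inner protein and tektin genes, 1 of 7 outer arm dynein chains and 1 of 7 radial spoke genes. The forkhead motif GTAAACA occurred in 4 genes (4.88%, against 4.05%) and CCAAT in 36 (43.9%, against 41.1%). Such matches describe letters and not bound sites. Any link between the fall of Rfx2 and Rfx3 and that of the axoneme genes was not tested.

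The windows of 5 genes that fell, each of another role, and of Mcidas, which did not pass, show where the arm lies, with GTTGCC or its complement GGCAAC in capitals. They were picked after their values were seen and lie on the plus strand at chr5:124724835-124725134 (Dnah10), chr8:110266727-110267026 (Hydin), chr16:44394549-44394848 (Cfap44), chr5:30281143-30281442 (Drc1), chr14:57423821-57424120 (Ift88) and chr13:112993618-112993917 (Mcidas).
Dnah10: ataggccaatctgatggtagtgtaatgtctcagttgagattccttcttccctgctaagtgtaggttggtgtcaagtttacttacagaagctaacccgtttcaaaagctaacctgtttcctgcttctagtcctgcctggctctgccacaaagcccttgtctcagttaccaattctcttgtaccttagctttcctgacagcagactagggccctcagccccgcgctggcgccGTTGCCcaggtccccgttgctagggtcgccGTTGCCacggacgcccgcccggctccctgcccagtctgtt
Hydin: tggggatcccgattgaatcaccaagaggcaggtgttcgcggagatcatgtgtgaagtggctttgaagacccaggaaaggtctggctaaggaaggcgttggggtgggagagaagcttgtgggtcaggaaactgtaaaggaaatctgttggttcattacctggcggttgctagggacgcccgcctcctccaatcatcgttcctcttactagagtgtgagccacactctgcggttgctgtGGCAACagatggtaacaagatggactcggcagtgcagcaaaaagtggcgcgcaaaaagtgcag
Cfap44: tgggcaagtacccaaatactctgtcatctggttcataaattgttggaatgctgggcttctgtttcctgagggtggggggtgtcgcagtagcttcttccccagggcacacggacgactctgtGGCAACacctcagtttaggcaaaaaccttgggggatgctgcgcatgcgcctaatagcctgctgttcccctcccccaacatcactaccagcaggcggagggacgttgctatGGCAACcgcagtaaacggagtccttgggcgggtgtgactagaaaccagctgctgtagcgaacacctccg
Drc1: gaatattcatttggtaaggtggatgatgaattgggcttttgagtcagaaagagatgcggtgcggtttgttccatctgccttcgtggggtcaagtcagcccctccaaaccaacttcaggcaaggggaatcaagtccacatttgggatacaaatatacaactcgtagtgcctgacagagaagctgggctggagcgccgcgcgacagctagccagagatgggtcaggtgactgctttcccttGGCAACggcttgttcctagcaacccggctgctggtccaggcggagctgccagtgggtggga
Ift88: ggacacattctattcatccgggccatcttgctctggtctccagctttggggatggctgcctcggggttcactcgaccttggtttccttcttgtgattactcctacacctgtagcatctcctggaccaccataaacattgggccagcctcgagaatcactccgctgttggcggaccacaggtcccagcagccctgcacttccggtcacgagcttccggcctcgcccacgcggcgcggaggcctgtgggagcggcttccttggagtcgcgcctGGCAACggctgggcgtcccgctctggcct
Mcidas: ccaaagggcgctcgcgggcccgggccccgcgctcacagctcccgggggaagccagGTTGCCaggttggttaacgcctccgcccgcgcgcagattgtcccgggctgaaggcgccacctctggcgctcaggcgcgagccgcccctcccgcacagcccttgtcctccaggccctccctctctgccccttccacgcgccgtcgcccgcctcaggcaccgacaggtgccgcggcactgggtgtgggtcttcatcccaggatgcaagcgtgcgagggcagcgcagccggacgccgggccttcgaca
The arm nearest the left end begins at -20 in Dnah10, -13 in Hydin, -129 in Cfap44, -11 in Drc1, 21 in Ift88 and -195 in Mcidas, counted from the annotated start with upstream bases negative. Dnah10 and Cfap44 hold 2 copies each.

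Outer arm dyneins drive most of the beat force, and all 5 tested chains fell in model lung (median -1.58) and in nanozyme lung (median -1.44). Dnah5, a heavy chain whose loss immobilises airway cilia, was at 4.16, 2.91 and 3.22 FPKM in nanozyme, 2.94, 3.66 and 1.38 FPKM in model and 20.4, 7.70 and 13.9 FPKM in normal lungs. All 6 nanozyme and model values lay below the lowest normal value. Its mean was 24.5% of normal in nanozyme lung (-1.68 ± 0.35, adjusted p = 0.0174) and 18.99% in model lung (-1.997 ± 0.35, adjusted p = 0.00359). The nanozyme call ended without normal replicate 1 (-1.37, adjusted p = 0.06115) and without normal replicate 3 (-1.63, adjusted p = 0.0697), and with no filter (adjusted p = 0.0544). Dnaic2, an intermediate chain, was at 7.50, 10.9 and 8.44 FPKM in nanozyme, 10.97, 9.08 and 4.97 FPKM in model and 34.8, 17.8 and 24.7 FPKM in normal lungs. Again the normal lungs stood apart and nanozyme and model values were mixed. Dnaic2 changed by -1.53 ± 0.30 in model against normal lung (adjusted p = 0.00589) and Dnaic1, its partner chain, by -1.51 ± 0.34 (adjusted p = 0.00991). The heavy chains Dnah9 and Dnah11 were higher in every nanozyme than in every model lung, Dnah9 at 2.38, 2.18 and 2.53 against 1.92, 2.004 and 0.957 FPKM, without passing the test (0.38 ± 0.26, adjusted p = 0.395). Nanozyme lungs were entirely above model lungs at 9 of the 90 axoneme genes and at 10.6% of all tested genes, and entirely below at 0 axoneme genes and 5.83% of all tested genes.

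Inner arm dyneins shape the bend of the cilium, and all 9 tested chains fell in model lung (median -1.39) and in nanozyme lung (median -1.27). Dnah6, a heavy chain, had 4.73, 5.14 and 5.68 FPKM in nanozyme, 5.06, 4.45 and 2.62 FPKM in model and 26.7, 13.9 and 19.97 FPKM in normal lungs. Its nanozyme mean was 25.7% and its model mean 20.03% of normal, and neither group reached the lowest normal lung. The log2 fold change against normal was -1.73 ± 0.25 in nanozyme (adjusted p = 0.00422) and -2.06 ± 0.25 in model lung (adjusted p = 0.000939). Dnali1, the light intermediate chain of some inner arms, had 10.7, 16.9 and 14.6 FPKM in nanozyme, 14.8, 15.4 and 6.21 FPKM in model and 57.9, 29.8 and 41.2 FPKM in normal lungs. Dnali1 fell by 1.79 on the log2 scale in model lung (SE 0.36, adjusted p = 0.00582), with no overlap. Dnah3, another heavy chain, showed a smaller change (-1.35 ± 0.28, adjusted p = 0.00671). Dnah7b and Dnah7c are close copies (17.1% of the 100-base windows of Dnah7b occur in Dnah7c), so reads may have been shared and their single values are uncertain. Dnah7c reached 1 FPKM only in normal lungs, as did Tekt3 among the tektins, so both entered the test through the group in which they were high. Without them 74 of 88 fell in model and 55 of 88 in nanozyme lung.

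Dynein assembly factors fold and preassemble the arms in the cytoplasm before they enter the cilium. Of 8 tested, 7 fell in model lung (median -1.01) and 4 in nanozyme lung (median -0.97). Dnaaf3 had 6.66, 10.1 and 9.12 FPKM in nanozyme, 11.2, 8.20 and 4.69 FPKM in model and 24.9, 13.2 and 18.03 FPKM in normal lungs. It fell in model lung (-1.15 ± 0.31, adjusted p = 0.0193), a call that ended without model replicate 3 (-0.85, adjusted p = 0.0516), normal replicate 1 (-0.93, adjusted p = 0.0688) or normal replicate 3 (-1.16, adjusted p = 0.0557), and with no filter on low values (adjusted p = 0.0533). Dnaaf5 changed less (-0.66 ± 0.16, adjusted p = 0.0117) at a model mean of 60.5% of normal. Cfap298, at 26.2, 41.7 and 30.1 FPKM in nanozyme, 38.9, 38.8 and 23.2 FPKM in model and 60.9, 44.7 and 50.9 FPKM in normal lungs, did not pass (-0.65 ± 0.24, adjusted p = 0.0619), although no model lung reached the lowest normal lung. It passed without nanozyme replicate 2 (adjusted p = 0.0397), with quantile normalization (adjusted p = 0.0269) and with sample weights (adjusted p = 0.0150). Exons of Dnaaf2 and Cfap298 overlap other genes over 71.4% and 53.6% of their bases, and the strand setting of the counting is not given in the sources used here, so their reads may include those neighbours.

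Nexin-dynein and radial spoke genes fell together in model lung. All 3 tested genes of the nexin-dynein regulatory complex, Drc1, Drc3 and Drc7, fell in model and in nanozyme lung. Drc1, a core linker, had 7.65, 10.8 and 9.26 FPKM in nanozyme, 9.21, 9.75 and 4.05 FPKM in model and 38.4, 20.98 and 28.2 FPKM in normal lungs. Its values in nanozyme and model lungs were interleaved, and all lay below normal (-1.84 ± 0.32, adjusted p = 0.00337 in model, and -1.53 ± 0.32, adjusted p = 0.0170 in nanozyme lung). The nanozyme calls of Drc1, Drc3 and Drc7 ended without normal replicate 1 (adjusted p 0.0544 to 0.108) or normal replicate 3 (adjusted p 0.0535 to 0.0924). All 9 tested radial spoke genes fell in model lung (median -1.48) and 6 in nanozyme lung (median -1.39). Cfap61, placed at the base of a spoke in Chlamydomonas, had 4.53, 4.14 and 6.59 FPKM in nanozyme, 4.37, 2.45 and 1.25 FPKM in model and 21.1, 12.7 and 14.95 FPKM in normal lungs. This was the largest fall of the 90 genes in model lung on the log2(FPKM + 1) scale (-2.28 ± 0.32, adjusted p = 0.00159), with a mean of 16.6% of normal. As a percent of normal the low genes Tekt3 (13.7%) and Dnah7c (16.4%) stood lower. Cfap61 also had the largest positive value of the 90 in nanozyme against model lung, which did not pass (0.79 ± 0.32, adjusted p = 0.204). Rsph1, a spoke head protein, had 21.5, 43.7 and 33.0 FPKM in nanozyme, 40.2, 40.5 and 16.9 FPKM in model and 103, 51.6 and 80.3 FPKM in normal lungs. Its fall in model lung (-1.29 ± 0.40, adjusted p = 0.0332) was not called without model replicate 3 (-0.89, adjusted p = 0.0863), normal replicate 1 (-1.06, adjusted p = 0.109) or normal replicate 3 (-1.24, adjusted p = 0.0917), nor with no filter, median-of-ratios scaling, the replicate block or a large-airway covariate (adjusted p 0.0552 to 0.0846). The head protein gene Rsph9 also fell (-1.29 ± 0.33, adjusted p = 0.0155; without normal replicate 1, adjusted p = 0.0575). Rsph3a, a stalk protein gene, fell by 0.79 (SE 0.20, adjusted p = 0.0148; without normal replicate 1, adjusted p = 0.0552), and 60.6% of its 100-base windows occur in Rsph3b, so these values may mix.

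**Figure D2:**
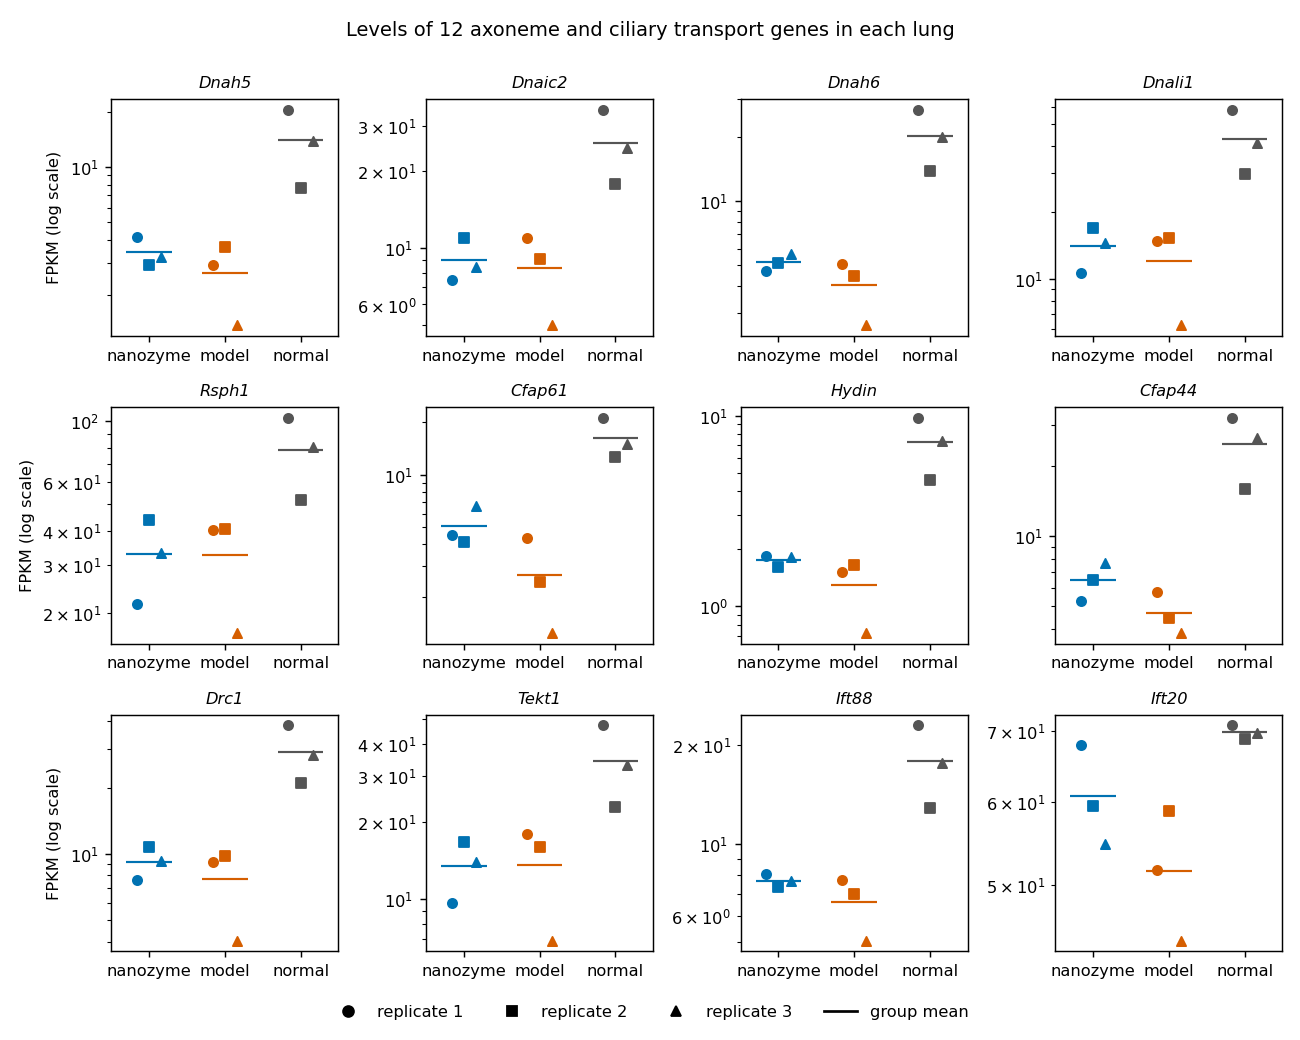
FPKM on a log axis of 12 axoneme and ciliary transport genes in each nanozyme, model and normal lung; symbols give the replicate number and lines the group means. Normal lungs lie above the other 6 in every panel, model replicate 3 is the lowest lung in each, and the Ift20 panel spans the smallest range in proportion (44.3 to 70.9 FPKM).

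The central apparatus runs along the middle of the axoneme, and its genes fell as a whole list. In model lung 11 of 11 tested genes fell (median -1.51) and in nanozyme lung 11 of 11 (median -1.40). The nanozyme calls did not all hold without normal replicate 1 or without normal replicate 3. Hydin, a very large central pair protein whose loss in mice causes hydrocephalus, had 1.84, 1.61 and 1.81 FPKM in nanozyme, 1.51, 1.65 and 0.726 FPKM in model and 9.75, 4.62 and 7.33 FPKM in normal lungs. The means were 1.75 ± 0.127 FPKM in nanozyme, 1.297 ± 0.4996 FPKM in model and 7.23 ± 2.57 FPKM in normal lungs (SD, n = 3 each). Every nanozyme and model lung held less Hydin than every normal lung (-1.82 ± 0.25, adjusted p = 0.00148 in model, and -1.53 ± 0.25, adjusted p = 0.00662 in nanozyme lung), and nanozyme did not pass against model lung (0.29 ± 0.25, adjusted p = 0.511). Cfap65 had 9.01, 14.5 and 14.7 FPKM in nanozyme, 13.7, 8.70 and 5.25 FPKM in model and 47.8, 27.3 and 36.8 FPKM in normal lungs (-1.96 ± 0.33, adjusted p = 0.00326 in model). Spag6l, a scaffold of the central pair, fell by 1.51 and Cfap69 by 1.33 on the log2 scale in model lung. The nanozyme calls of Cfap65, Cfap69 and Spag6l ended without normal replicate 1 (adjusted p 0.0685 to 0.108) or normal replicate 3 (adjusted p 0.0664 to 0.0940). Spag16 and Spag17, also central pair proteins, fell by 1.65 and 1.42.

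Microtubule inner proteins and tektins line the inside of the doublets, and 11 of 13 tested fell in model lung (median -1.28) and 7 in nanozyme lung (median -1.21). Tekt1 had 9.66, 16.7 and 13.99 FPKM in nanozyme, 17.9, 15.98 and 6.93 FPKM in model and 47.1, 22.7 and 32.99 FPKM in normal lungs. It fell in model lung (-1.31 ± 0.38, adjusted p = 0.0253), but not without model replicate 3 (-0.92, adjusted p = 0.0614), normal replicate 1 (-1.05, adjusted p = 0.0873) or normal replicate 3 (-1.30, adjusted p = 0.0689), nor with no filter (adjusted p = 0.0677). Cfap126 (also called Flattop) had 16.2, 19.95 and 28.1 FPKM in nanozyme, 21.3, 35.5 and 11.4 FPKM in model and 61.7, 35.1 and 42.99 FPKM in normal lungs. Model replicate 2 overlapped the normal range at Cfap126, which did not pass (-1.10 ± 0.39, adjusted p = 0.0514). It passed without that library (-1.48, adjusted p = 0.0179), with quantile normalization (adjusted p = 0.0344) and with sample weights (adjusted p = 0.00991). Cfap20 fell less (-0.80 ± 0.16, adjusted p = 0.00553). Tekt5 did not follow the others: 3.58, 2.64 and 2.99 FPKM in nanozyme, 2.07, 2.03 and 2.62 FPKM in model and 2.39, 2.35 and 2.72 FPKM in normal lungs (-0.11 ± 0.13, adjusted p = 0.533 in model). All 3 nanozyme values lay above the model values there (0.33 ± 0.13, adjusted p = 0.204).

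Of 13 further tested Cfap genes, 10 fell in model lung (median -1.68) and 6 in nanozyme lung (median -1.24). Cfap44, which tethers an inner arm dynein in Chlamydomonas and Tetrahymena, had 5.25, 6.50 and 7.63 FPKM in nanozyme, 5.73, 4.42 and 3.83 FPKM in model and 32.2, 15.9 and 26.4 FPKM in normal lungs. It had the smallest adjusted p of the axoneme genes in both comparisons with normal lung (-2.15 ± 0.25, adjusted p = 0.00078 in model, and -1.75 ± 0.25, adjusted p = 0.00393 in nanozyme lung). Its tether partner Cfap43 fell by 1.93 (SE 0.38, adjusted p = 0.00534) in model lung. Cfap100, which regulates an inner arm in Chlamydomonas, fell in model lung (-1.91 ± 0.38, adjusted p = 0.00604). Its nanozyme values of 8.57, 7.70 and 9.56 FPKM lay above its model values of 7.22, 6.93 and 2.34 FPKM (0.67 ± 0.38, adjusted p = 0.324 for nanozyme against model). Its Chlamydomonas partner Cfap73 likewise had 3.55, 3.41 and 3.78 FPKM in nanozyme and 2.71, 2.45 and 0.842 FPKM in model lungs (0.68 ± 0.32, adjusted p = 0.246). Cfap36 fell less in model lung (-0.64 ± 0.17, adjusted p = 0.0177), with a model mean of 63.2% of normal. Its call ended without model replicate 3 (adjusted p = 0.0519), normal replicate 1 (adjusted p = 0.0656) or normal replicate 3 (adjusted p = 0.0565), and with median-of-ratios scaling (adjusted p = 0.0647). Cfap97, Cfap97d2 and Cfap410 did not pass in any comparison. Cfap410, at 6.23, 9.90 and 8.92 FPKM in nanozyme, 10.7, 11.8 and 8.07 FPKM in model and 10.3, 7.24 and 9.39 FPKM in normal lungs, overlapped across all 3 groups.

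Intraflagellar transport genes changed least among the ciliary roles with more than 3 tested genes. Of 14 tested, 10 fell in model lung (median -0.75, range -1.35 to -0.01) and 6 in nanozyme lung (median -0.57), and the median gene averaged 64.9% of its normal mean in nanozyme and 54.9% in model lung. Ift88, a core subunit of the IFT-B train, had 8.08, 7.36 and 7.71 FPKM in nanozyme, 7.77, 7.02 and 5.06 FPKM in model and 23.0, 12.9 and 17.7 FPKM in normal lungs, with no overlap (-1.29 ± 0.21, adjusted p = 0.00268 in model, and -1.08 ± 0.21, adjusted p = 0.0132 in nanozyme lung). Ift81 and Ift74, which form the tubulin-binding module of IFT-B, fell by 1.35 and 0.93 in model lung. Ift43, of the IFT-A complex that returns cargo to the cell body, had 36.5, 37.2 and 43.9 FPKM in nanozyme, 33.6, 30.8 and 26.2 FPKM in model and 67.2, 53.1 and 56.0 FPKM in normal lungs. The 3 groups did not overlap at Ift43, with nanozyme between the others, and nanozyme against model did not pass (0.37 ± 0.14, adjusted p = 0.188). Ift122, also of IFT-A, showed the same order (6.28, 4.79 and 6.24 FPKM in nanozyme, 4.74, 3.74 and 4.49 FPKM in model and 10.4, 7.67 and 8.79 FPKM in normal lungs). Ift20, which also works at the Golgi, had 68.0, 59.4 and 54.7 FPKM in nanozyme, 51.7, 58.8 and 44.3 FPKM in model and 70.9, 68.8 and 69.8 FPKM in normal lungs. Its small fall in model lung (-0.44 ± 0.13, adjusted p = 0.0245) was not called with median-of-ratios scaling (-0.29, adjusted p = 0.139) or without model replicate 1 or 3 or any normal library (adjusted p 0.0511 to 0.0752). Ift27, a small GTPase of IFT-B, fell by 0.65 (SE 0.18, adjusted p = 0.0198), but not without normal replicate 1 (adjusted p = 0.0721) or normal replicate 3 (adjusted p = 0.0732), nor with median-of-ratios scaling (adjusted p = 0.0548). Ift46, Ift52, Ift57 and Ift22 did not pass. Ift22, a GTPase of IFT-B, had 9.49, 12.4 and 15.9 FPKM in nanozyme, 12.5, 20.8 and 16.2 FPKM in model and 16.9, 10.7 and 23.6 FPKM in normal lungs, a spread within normal lung that covers nearly all of the other values.

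The Spag names gathered by the rule include genes with no known place in the axoneme, and of the 3 tested 1 rose, 1 fell and 1 did not pass in model lung. Spag5, encoding the mitotic spindle protein astrin, had 2.72, 4.94 and 3.15 FPKM in nanozyme, 4.84, 3.25 and 4.76 FPKM in model and 2.07, 1.34 and 2.05 FPKM in normal lungs. It was the 1 gene of 90 that rose in model lung (0.90 ± 0.22, adjusted p = 0.0121), and all nanozyme lungs were above normal as well (0.69 ± 0.22, adjusted p = 0.0681). In model lung all 21 cell cycle genes tested rose beside it (median 1.41), among them Mki67, a proliferation marker (11.3, 15.3 and 8.29 FPKM in nanozyme, 11.9, 14.6 and 14.2 FPKM in model and 1.93, 1.71 and 1.74 FPKM in normal lungs). Spag7 was level at 35.3 to 41.2 FPKM in nanozyme, 32.8 to 38.5 FPKM in model and 35.5 to 38.4 FPKM in normal lungs. Spag9, a motor adaptor also known as JIP4, fell by 0.48 (SE 0.14, adjusted p = 0.0254) in model lung, but not with equal column sums (-0.40, adjusted p = 0.109) or without model replicate 2 or any normal library (adjusted p 0.0588 to 0.0785).

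The 2 regulators in the rule passed in no comparison with all 9 libraries at equal weight and on the deposited scale. Foxj1, the most abundant of the 101 genes in normal lung, had 37.9, 76.2 and 43.0 FPKM in nanozyme, 87.8, 76.1 and 36.8 FPKM in model and 156, 96.5 and 124 FPKM in normal lungs. The means were 52.4 ± 20.8 FPKM in nanozyme, 66.9 ± 26.7 FPKM in model and 125 ± 29.8 FPKM in normal lungs (SD, n = 3 each). All normal lungs lay above the other 6, yet Foxj1 passed neither in model (-0.96 ± 0.37, adjusted p = 0.0682) nor in nanozyme lung (-1.28 ± 0.37, adjusted p = 0.0532). It passed in both without nanozyme replicate 2 (adjusted p = 0.0418 and 0.0278), in model lung without model replicate 1 (adjusted p = 0.0491) and in nanozyme lung without model replicate 3 (adjusted p = 0.0271) or with those 2 groups fitted alone (adjusted p = 0.0436). Foxj1 also passed in model and nanozyme lung with quantile normalization (adjusted p = 0.0302 and 0.0279) and with sample weights (adjusted p = 0.0187 and 0.00136). Mcidas had 0.423, 6.75 and 2.40 FPKM in nanozyme, 10.5, 3.97 and 5.39 FPKM in model and 4.55, 4.66 and 3.63 FPKM in normal lungs. Model lungs did not lie below normal lungs at Mcidas (0.44 ± 0.56, adjusted p = 0.548), and nanozyme replicate 1 was the lowest of all 9. The means were 3.19 ± 3.24 FPKM in nanozyme, 6.62 ± 3.43 FPKM in model and 4.28 ± 0.562 FPKM in normal lungs (SD, n = 3 each), and nanozyme passed neither against model (-1.09 ± 0.56, adjusted p = 0.275) nor against normal lung (-0.65 ± 0.56, adjusted p = 0.475). Without nanozyme replicate 2, Mcidas was the only axoneme gene called in nanozyme against model lung, at -1.70 ± 0.43 (adjusted p = 0.0286; with sample weights and all libraries, adjusted p = 0.0410), while 12.5% of all tested genes were higher and 9.64% lower.

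Genes that act with Mcidas also split the nanozyme libraries. Ccno, encoding cyclin O, and Deup1, which builds the deuterosomes on which multiciliated cells multiply their centrioles, are 2 of these, and Cdc20b and Foxn4 (a forkhead factor of multiciliated cells in Xenopus) are others. They were grouped after their values were seen, so the group has no test. Ccno had 2.51, 17.1 and 5.61 FPKM in nanozyme, 20.03, 10.2 and 10.8 FPKM in model and 12.6, 10.8 and 12.04 FPKM in normal lungs. Deup1 had 2.11, 19.6 and 4.95 FPKM in nanozyme, 13.7, 11.3 and 7.71 FPKM in model and 16.1, 8.24 and 12.7 FPKM in normal lungs. Nanozyme replicates 1 and 3 were below every other lung at Ccno and Deup1, and nanozyme replicate 2 was high at both. None of the 5 genes passed in any comparison with all 9 libraries at equal weight (Ccno in model against normal 0.14 ± 0.52, adjusted p = 0.851). Without nanozyme replicate 2, Ccno (-1.55 ± 0.33, adjusted p = 0.0161) and Deup1 (-1.43 ± 0.36, adjusted p = 0.0287) were lower in nanozyme than in model lung, whereas Foxn4 (-1.12 ± 0.37, adjusted p = 0.0701) and Cdc20b (-1.11 ± 0.43, adjusted p = 0.107) did not pass. Against normal lung, without that library, Ccno (-1.41, adjusted p = 0.0318), Deup1 (-1.59, adjusted p = 0.0285) and Foxn4 (-1.53, adjusted p = 0.0353) were lower in nanozyme lung, and Mcidas (-1.26, adjusted p = 0.0995) and Cdc20b (-1.20, adjusted p = 0.113) did not pass. Of 14 regulators outside the rule, 7 fell in model lung, 1 rose and 6 did not pass. Gmnc, which acts upstream of Mcidas, had 1.495, 1.33 and 0.680 FPKM in nanozyme, 1.51, 2.37 and 0.783 FPKM in model and 5.22, 4.12 and 4.03 FPKM in normal lungs and fell in model lung (-1.14 ± 0.25, adjusted p = 0.00862). Myb (-0.84 ± 0.27, adjusted p = 0.0390) and Trp73 (-1.24 ± 0.23, adjusted p = 0.00436), transcription factors of multiciliated cell formation, fell too. Tfdp1, the partner of E2F factors, rose (0.49 ± 0.11, adjusted p = 0.0107).

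**Figure D3:**
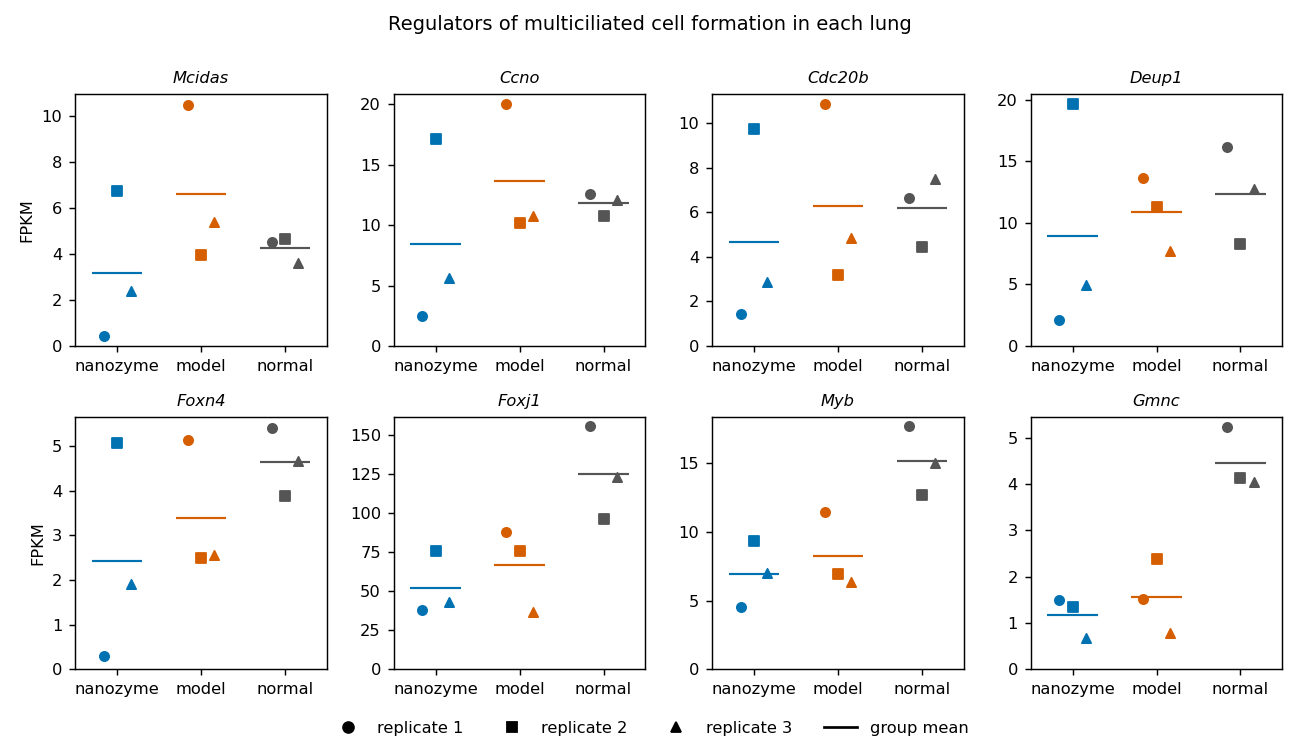
FPKM from 0 on a linear axis of Mcidas and 7 other regulators of multiciliated cell formation in each nanozyme, model and normal lung; symbols give the replicate number and lines the group means. In the panels of Mcidas, Ccno, Cdc20b, Deup1 and Foxn4, nanozyme replicate 2 stands above nanozyme replicates 1 and 3 and model and normal lungs overlap, whereas normal lungs lie above all others for Foxj1, Myb and Gmnc.

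Ciliary genes outside the rule went the same way as the axoneme genes. Of 40 tested axoneme and assembly genes with other names, 37 fell in model lung (median -1.46) and 24 in nanozyme lung (median -1.27). Ccdc39, a molecular ruler of the axoneme, had 6.73, 12.3 and 8.66 FPKM in nanozyme, 10.8, 10.05 and 6.57 FPKM in model and 48.6, 20.4 and 33.5 FPKM in normal lungs. Of 27 tested transport, motor and BBSome genes, 22 fell in model lung, and Bbip1, a BBSome subunit, rose (1.03 ± 0.18, adjusted p = 0.00392), at 11.2, 14.2 and 18.8 FPKM in nanozyme, 19.1, 16.9 and 22.3 FPKM in model and 7.91, 9.94 and 9.06 FPKM in normal lungs. Of 15 ciliated cell markers outside the axoneme, 12 fell in model lung (median -1.65) and 5 in nanozyme lung (median -1.09). Tppp3, a tubulin-binding protein of ciliated cells, had 205, 205 and 241 FPKM in nanozyme, 109, 118 and 89.7 FPKM in model and 381, 308 and 343 FPKM in normal lungs. The 3 groups did not overlap at Tppp3, which fell in model (-1.70 ± 0.14, adjusted p = 0.000214) and nanozyme lung (-0.66 ± 0.14, adjusted p = 0.0186), while nanozyme against model was 1.04 ± 0.14 (adjusted p = 0.178) with all libraries and 1.08 (adjusted p = 0.00334) without nanozyme replicate 2. Cyp2s1 and Sec14l3 had the same order and were likewise called higher in nanozyme than in model lung without that library (1.27, adjusted p = 0.000439, and 1.41, adjusted p = 0.00284). These 3 were named after their values were seen. Every nanozyme lung lay above every model lung at 3 of the 15 markers and at 10.6% of all tested genes. With all libraries 0 of the 15 passed in nanozyme against model lung. Without nanozyme replicate 2, 12.5% of all tested genes were called higher in that comparison.

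Within groups, most axoneme genes moved as a block. The median tested gene stood at 30.7%, 42.3% and 40.7% of its normal mean in nanozyme lungs, at 41.8%, 40.1% and 19.3% in model lungs and at 132%, 69.2% and 97.8% in normal lungs. Model replicate 3 was the lowest of the 9 libraries at 79 of 90 genes, and normal replicate 1 was the highest at 81. Even normal replicate 2, the lowest normal library, exceeded nanozyme replicates 1, 2 and 3 at 87, 83 and 85 of 90 genes and model replicates 1, 2 and 3 at 85, 82 and 85. Relative to normal replicate 2 the median gene stood at 46.2%, 61.2% and 58.8% in nanozyme and at 60.4%, 57.9% and 28.9% in model lungs.

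**Figure D4:**
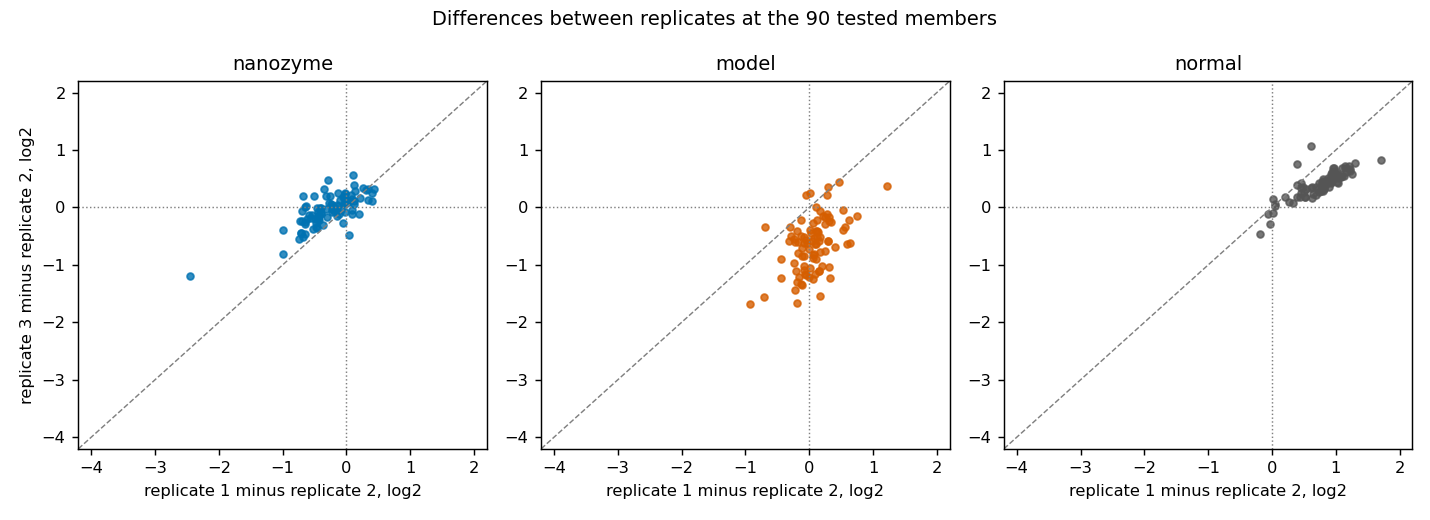
Each point is 1 of the 90 tested genes, placed by the log2(FPKM + 1) difference of replicate 1 minus replicate 2 (horizontal) and replicate 3 minus replicate 2 (vertical) within nanozyme, model and normal lungs; the dashed line marks equal differences. In normal lungs the points form a line with replicate 3 about midway between the other replicates, in model lungs most lie below 0 on the vertical axis, and the point apart at the lower left of the nanozyme panel is Mcidas.

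Markers of other cells also differed between the groups, in both directions, and their part in the result was not tested. All 14 neutrophil and macrophage markers rose in model lung (median 3.49), with summed FPKM of 7524 to 13825 in nanozyme, 10094 to 13738 in model and 3857 to 4735 in normal lungs. Of 19 general epithelial genes 11 fell and 0 rose in model lung (median -0.58), with sums of 995 to 1116 FPKM in nanozyme, 964 to 1441 FPKM in model and 1274 to 1523 FPKM in normal lungs. Epcam, an epithelial adhesion protein, had 37.4, 37.99 and 40.3 FPKM in nanozyme, 40.002, 46.9 and 30.6 FPKM in model and 73.9, 58.0 and 67.8 FPKM in normal lungs. The median axoneme gene minus the median epithelial gene was -2.29, -2.29 and -2.35 in nanozyme, -2.35, -2.27 and -2.71 in model and -1.67, -2.23 and -2.01 in normal lungs on the log2(FPKM + 1) scale. The nanozyme and model differences lay below the normal ones, but the nearest, model replicate 2 and normal replicate 2, were closer to each other than the normal libraries were among themselves. Set against the median of the ciliated cell markers outside the axoneme, the median axoneme gene was at -1.73, -1.36 and -1.58 in nanozyme, -1.13, -1.91 and -0.26 in model and -1.90, -1.72 and -1.93 in normal lungs, where the groups overlapped and 4 of the 6 nanozyme and model values were above every normal value. Of 14 club and secretory cell markers 7 fell in model lung, and their sums were 21951 to 32372 FPKM in nanozyme, 7920 to 22012 FPKM in model and 78498 to 82341 FPKM in normal lungs. Of 10 alveolar type 2 markers 4 fell in model lung (median -0.63). Of 10 alveolar type 1 markers 4 fell and 1 rose (median -0.75). Of 14 mesenchymal and endothelial markers 6 fell and 3 rose (median -0.68). Over all tested genes 22.7% fell and 17.4% rose in model lung. In nanozyme against normal lung 0 type 2 (median -0.06) and 0 type 1 markers (median 0.02) were called lower. In that comparison 3 mesenchymal and endothelial, 4 club and 6 general epithelial genes were lower, and 1 type 1 marker was higher. Over all tested genes 5.5% were lower and 8.39% higher there.

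Genes of large airways differed strongly within groups. Bpifa1, a secreted protein of the upper and large airways, had 661, 3.66 and 6.31 FPKM in nanozyme, 81.0, 636 and 1.46 FPKM in model and 4599, 2.34 and 2131 FPKM in normal lungs. Krt5, the basal cell keratin of large airways, was at 0.806, 0.0394 and 0 FPKM in nanozyme, 0, 10.8 and 0 FPKM in model and 14.5, 0 and 7.002 FPKM in normal lungs. Of 7 basal cell markers 4 were tested and 0 were called, and the sums of all 7 were 1.8 to 5.4 FPKM in nanozyme, 3.0 to 56.5 FPKM in model and 0.5 to 62.7 FPKM in normal lungs. Normal replicates 1 and 3, high in Bpifa1 and Krt5, were the normal libraries with most axoneme RNA. Model replicate 3, lowest of all 9 in Bpifa1, held the least axoneme RNA (summed FPKM 573, against 959 and 941 in model replicates 1 and 2). Krt5 was at 0 there, as in model replicate 1, nanozyme replicate 3 and normal replicate 2. Normal replicate 2, also low in Bpifa1, had an axoneme sum of 1393 FPKM. Model replicate 2, high in Bpifa1 and Krt5, was not above model replicate 1. Nanozyme replicate 1, highest of its group in both genes, had the lowest axoneme sum of its group (782, against 963 and 916). The mean log2(FPKM + 1) of Bpifa1, Krt5 and Krt15 was also used as a covariate, chosen after seeing the data. With it 76 axoneme genes fell and 1 rose in model lung (20.5% and 15.7% of all tested genes). In nanozyme lung 23 fell and 0 rose with it (2.24% and 5.15% of all tested genes). A covariate chosen in this way cannot decide what part large-airway content had, and that part was not tested.

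**Figure D5:**
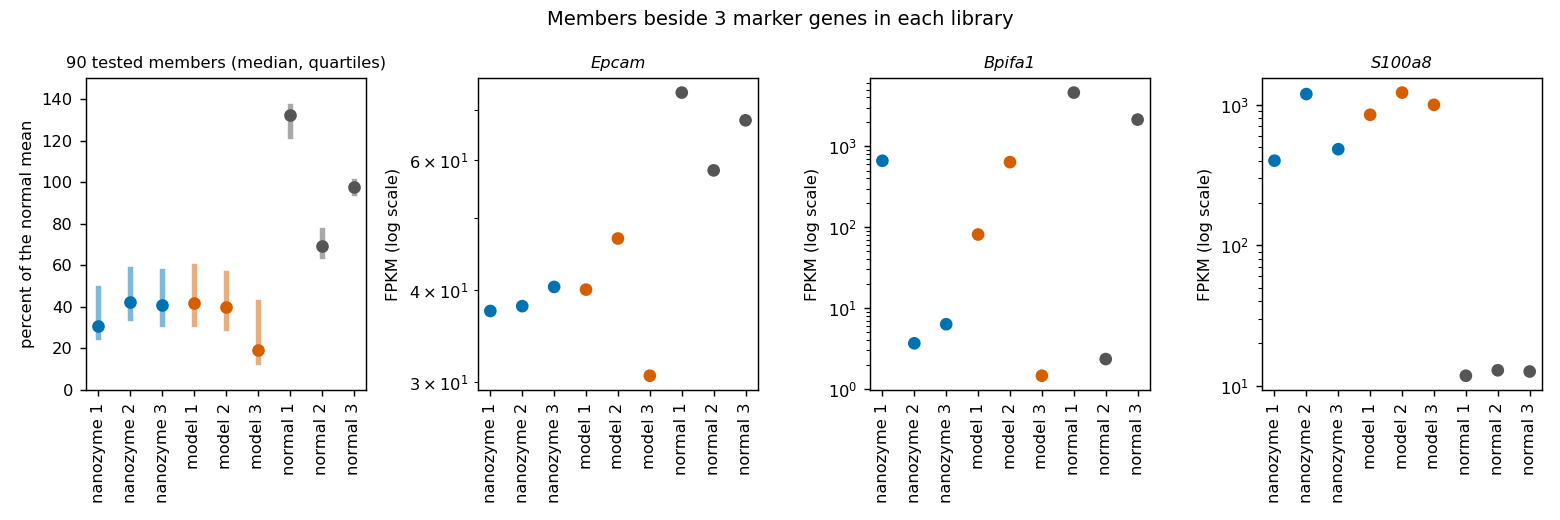
Left panel: median (point) and quartiles (bar) over the 90 tested axoneme genes of FPKM as a percent of each gene's normal mean, per library. The other panels give FPKM on log axes of Epcam (epithelium), Bpifa1 (large airways) and S100a8 (neutrophils) per library: Epcam and the axoneme genes are higher in the 3 normal lungs, S100a8 is lower there, and Bpifa1 is high in 1 nanozyme, 2 model and 2 normal libraries.

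On the log2(FPKM + 1) scale, which understates the change of low genes, the fall was of like size in each class of transcript length. As a percent of the normal mean, most of the longest axoneme genes stood lower in model lung than many short ones. Hydin was at 17.9% and Dnah9 at 18.2%, against 41.5% for Rsph1 and 40.9% for Rsph9. There were exceptions, such as the long Ift122 (48.2%) and the short Tekt3 (13.7%). For genes with less than 2000, 2000 to 5000, 5000 to 10000 and at least 10000 exonic bases, the median log2 fold change in model lung was -1.28, -1.44, -1.35 and -1.40 over axoneme genes and -0.06, -0.08, -0.15 and -0.25 over all tested genes. Lengths came from GENCODE M21, which held 88 of the 90 tested genes.

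The 11 genes below the level were not tested. Spag11a and Rsph6a were listed at 0 in all 9 libraries. Cfap47, of the central apparatus, had 0.272, 0.449 and 0.263 FPKM in nanozyme, 0.340, 0.240 and 0.118 FPKM in model and 2.41, 0.850 and 1.74 FPKM in normal lungs. Dnah7a, an inner arm heavy chain, had 0.341, 0.468 and 0.377 FPKM in nanozyme, 0.358, 0.253 and 0.0530 FPKM in model and 1.97, 0.930 and 1.48 FPKM in normal lungs, so normal lungs were highest at both genes without overlap. Dnah8, at 0.301 to 0.836 FPKM, and Dnah17, at 0.181 to 0.504 FPKM over the 9 libraries, are outer arm chains best known from sperm. Spag4, Spag6, Spag11b, Dnah14 and Cfap97d1 stayed below 1 FPKM in every library.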

How the data were processed

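Per the labels' protocols, lung RNA of each mouse was enriched for polyadenylated RNA and made into libraries, and per the submitters' processing notes HISAT2 and GRCm38 were used. The counter, its strand setting, the annotation and the versions are not given in the sources used here. The authors deposited 1 table of FPKM values, scaled to transcript length and library size. The axoneme genes, their roles and all lists were chosen with earlier results of these data known. The 14540 genes that reached 1 FPKM in 3 or more of 9 libraries were fitted together by limma 3.58.1 under R 4.3.3 on the scale log2(FPKM + 1), using every library in 1 fit, an intensity trend, two-sided tests and Benjamini-Hochberg adjustment at 0.05 over all of them per comparison. With 3 libraries a group, an exact permutation test cannot go below 0.10, so none was run. The fit was tested on simulated data. Genes given values were Foxj1, Mcidas and Hydin, up to 3 with the highest mean FPKM per role, the 5 largest calls per direction and calls against the main direction; others were named after their values were seen. Alternatives were a pseudocount of 0.1, no filter, a mean FPKM of 5, 3 scalings, the groups compared alone, no trend, sample weights, a replicate block and each library left out. Annotation was GENCODE M21 and promoters were RefSeq GRCm38.p6, read with Python 3.11.15, pandas 2.3.3 and numpy 2.4.6; figures used matplotlib 3.10.9. The p-values set a difference of group means against the spread between libraries, pooled over the groups and moderated across genes. Libraries were fitted as separate mice, as the labels give them. For normal replicate 3 this is in doubt, so n = 3 in normal lung counts libraries.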

Additional observations from a re-analysis of the deposited data

How the results depend on the processing

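In model against normal lung the number of axoneme genes that fell stayed within 1.5 times of 76 under every alternative run. It went from 59 of 69 with a mean FPKM of at least 5 to 80 with sample weights, and from 60 to 78 with a library left out. Over all tested genes 3299 fell in the main fit and 2152 of 10006 with a mean FPKM of at least 5. With sample weights 4459 fell, and with a library left out 1920 to 3836. The 1 gene that rose, Spag5, was absent (0) with a mean FPKM of at least 5, where it was not tested. In nanozyme against model lung 0 became 1 lower with sample weights and without nanozyme replicate 2, Mcidas in both. Over all tested genes 0 became 1662 higher and 1372 lower with sample weights, and 1814 higher and 1402 lower without that library. In nanozyme against normal lung 57 lower became 17 with no filter and 23 with the large-airway covariate, and ran from 9 to 71 with a library left out. Over all tested genes 800 lower became 603 of 25526 with no filter and 325 with the covariate. With a library left out they ran from 148 to 917, so the counts of all tested genes moved as well. With sample weights 1 axoneme gene was higher, against 3164 of all tested genes. The cause was not tested. Spag7, which passed nowhere, changed sign in model against normal lung when columns were set to equal sums (0.023) or scaled by median of ratios (0.0916), with a range of -0.1097 to 0.0024 when a library was left out. In nanozyme against normal lung it changed sign with quantile normalization (-0.0405), with a range of -0.0234 to 0.0865 when a library was left out. Same-numbered libraries of different groups deviated from their group means with correlations from -0.33 to 0.23, and differently numbered ones from -0.36 to 0.38. With 3 libraries a group, these values cannot decide whether the numbers pair the mice. With the replicate block 75 axoneme genes fell in model lung, against 3226 of all tested genes. In nanozyme against model lung 0 passed in either set. In nanozyme lung 41 axoneme genes fell, against 617 of all tested genes. Depth is unknown, which limits genes near 1 FPKM most.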
